A study of Homo sapiens with 6 samples.

Results

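Small leucine-rich proteoglycans are secreted matrix proteins with a horseshoe of leucine-rich repeats. Many bind collagen fibrils and set their diameter and spacing, many carry chondroitin, dermatan or keratan sulfate chains, and several bind growth factors or receptors of innate immunity, Toll-like receptors 2 and 4 among them. The 10 members described here are LUM, DCN, BGN, FMOD, PRELP, OGN, ASPN, OMD, EPYC and KERA, of 27738 genes matched in the whole table. The genes were listed by name, and for each gene 1 RefSeq transcript accession was chosen by its base mean, the average of normalized reads over all libraries, as the highest of that gene. Base means are therefore given as a description, with no test.

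RNA came from U87, an established human glioblastoma cell line, in 6 libraries. Of these, 3 were labelled EGFR+vIII (epidermal growth factor receptor with its constitutively active mutant vIII) and 3 were labelled EGFR+vIII TLR2 KO, in which Toll-like receptor 2 was knocked out. EGFR and vIII are thus named in the labels of both groups. The sources used here do not give how the receptors were introduced, how the knockout was made, whether it is 1 clone, or whether libraries of a group were separate cultures. The p-values therefore cover only the variation among these 6 libraries, and it may be technical.

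The base means sum to 11240272 normalized reads, and the size factors of the libraries ran from 0.928 to 1.07. Every fold change is knockout over EGFR+vIII, the order of the authors' heading. The targeted gene cannot check that order, because all 8 TLR2 accessions are listed at 0 in the authors' deposited table, and with the opposite order each direction below would turn. Genes counted as tested are those for which the authors' deposited table has an adjusted p. Of 10 glioma and astrocyte markers, 6 were tested, led by VIM (base mean 126476 in the authors' deposited table), and GFAP and S100B, defining astrocyte markers, are listed at 0 there. Markers of this list moved in both directions with the knockout, CHI3L1 (3.01) and NES (1.01) higher and SOX2 (-2.45) and VIM (-0.29) lower by log2 fold changes from the authors' deposited table. Of 6 epithelial markers 3 were tested, and the keratins KRT5 (1.83, base mean 10.3) and KRT14 (1.39, base mean 7.01) were higher in the authors' deposited table. EPCAM, the other tested one, was at -0.22 there (base mean 22.4, DESeq2 adjusted p = 0.758) and did not pass. KRT8 and KRT18 had too few reads to test, and CDH1 is listed at 0. GFAP, CDH1 and KRT8 have 4 listed transcripts each and KRT18 has 2, so their low values do not show that these genes were silent. No tested marker of endothelium (3), leucocytes (1) or neurons (1) passed. The part of these marker changes in any result below was not tested.

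In these cells LUM was the one member with appreciable reads, and it was lower in the knockout. LUM encodes lumican, a keratan sulfate proteoglycan that binds fibrillar collagen. LUM lies on the minus strand of chromosome 12 (91102629 to 91111494, GRCh38), and its base mean in the authors' deposited table was 932.7. The log2 fold change of LUM in the authors' deposited table was -1.71 (SE 0.12, DESeq2 adjusted p = 1.14e-47). Its level was thus 3.28-fold lower in the knockout, with a 95% interval of 2.80 to 3.83 computed from the SE in the authors' deposited table. Base mean and fold change together imply about 1429 normalized reads of LUM per EGFR+vIII library and 436 per knockout library. With libraries pooled into 1 value per gene, whether the LUM levels of the groups overlapped is not shown, and fewer cells with LUM or less LUM RNA per cell cannot be told apart in bulk RNA.

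LUM has close relatives, and reads that fit several of them could be divided. The coding sequence of each member in GENCODE 29 was therefore compared with the 1017 coding bases of LUM. Identity over aligned bases ran from 60.5% for BGN to 67.0% for OGN. Among the sequences compared, the longest run of bases that LUM shares is 16 bases, with FMOD (fibromodulin, also a keratan sulfate proteoglycan of collagen fibrils). Both stretches are shown 5′ to 3′ with that run in capitals. That of LUM is in exon 2 at chr12:91108554-91108649 and that of FMOD in exon 2 at chr1:203347728-203347823, both on the minus strand of GRCh38.
LUM: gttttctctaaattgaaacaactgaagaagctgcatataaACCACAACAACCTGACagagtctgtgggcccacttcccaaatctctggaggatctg
FMOD: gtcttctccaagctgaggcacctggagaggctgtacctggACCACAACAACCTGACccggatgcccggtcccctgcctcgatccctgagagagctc

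The lower-case flanks differ at many bases, so that the relatives are alike only over short runs. Of the 2959 windows of 50 bases in the 3008-base LUM transcript, 0% occur in a transcript of another gene. LUM also has 1 accession in the authors' deposited table, so no second LUM transcript was there to divide its reads.

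The other 9 members were too sparse to test. BGN (biglycan) and DCN (decorin), chondroitin or dermatan sulfate proteoglycans that can act as ligands of Toll-like receptors 2 and 4, stood in the authors' deposited table at base means of 2.05 (BGN) and 0.979 (DCN). For FMOD the authors' deposited table gives 0.163. None reached 3.11, the smallest base mean that carries an adjusted p there. PRELP, which anchors basement membranes to connective tissue, the osteoinductive factor OGN (osteoglycin, or mimecan), the collagen-binding ASPN (asporin), OMD (osteomodulin, of bone), EPYC (epiphycan, of cartilage) and KERA (keratocan, of cornea) have 0 for each accession in the authors' deposited table.

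**Figure D1:**
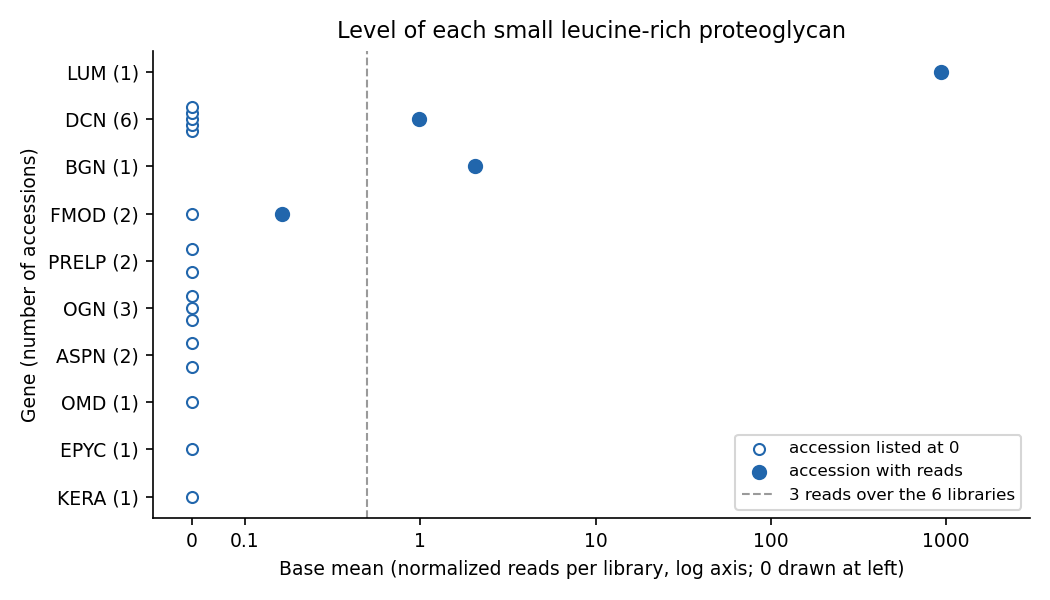
Base mean of every accession of the 10 members (normalized reads per library, log axis), with 0 drawn at the left as open circles and the number of accessions in parentheses. LUM stands at 932.7, BGN, DCN and FMOD lie at or below 2.05, and the other 6 genes have open circles only.

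How the authors' counting treated reads that fit several accessions is not stated, so a listing at 0 has to be read with the number of accessions. OMD, EPYC and KERA have 1 accession each, and 30.02% of the 7927 protein-coding genes with 1 accession (Wilson 95% interval 29.02 to 31.04) are listed at 0 in the authors' deposited table. For each of these 3 genes, 0 reads over the 6 libraries allow up to 3 reads (a base mean of 0.5), a limit that covers counting error only. Per kilobase of transcript LUM had 310.1 normalized reads, at least 954-fold above EPYC, at least 1341-fold above KERA and at least 1519-fold above OMD, each set at that limit over all libraries. Against BGN, which also has 1 accession, the level of LUM per kilobase was 363-fold higher as an average over both groups. Within a group that ratio differs, because LUM was lower in the knockout while 9 of the 12 BGN reads came from there.

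DCN has 6 accessions in the authors' deposited table, OGN has 3, and FMOD, PRELP and ASPN have 2 each. In DCN NM_133503, the accession with reads, 89.5% of the windows of 50 bases occur in another listed DCN transcript. The corresponding share is 88.7% to 96.3% for the OGN transcripts and 88.4% to 97.9% for those of ASPN. Among protein-coding genes with 6 accessions, 22 of 583 (3.77%, Wilson 95% interval 2.51 to 5.65) reached a base mean of 100 in the authors' deposited table, against 7.11% with 3 accessions, 12.03% with 2 and 40.8% with 1. Of genes with 3 accessions 46.8%, and of those with 2 accessions 43.4%, are listed at 0 in the authors' deposited table. Both PRELP accessions correspond to 1 GENCODE transcript, and the second FMOD accession was not matched to one. The low values of DCN, OGN, ASPN, PRELP and FMOD therefore do not show that these genes were silent in U87 cells.

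For genes with few reads, a base mean can be resolved into whole reads per library, since 1 read in each library adds its own amount, and 1 solution was found for each gene given here. The sign of the fold change of accessions with 1 read puts 3 libraries on each side, and the libraries are named a, b and c within a side only for reference. BGN had 3, 0 and 0 reads in the EGFR+vIII libraries and 5, 2 and 2 in the knockout libraries. The groups overlap, and all EGFR+vIII reads of BGN came from 1 library. The ratio of the 9 knockout to the 3 EGFR+vIII reads is 3, with an exact 95% counting interval of 0.749 to 17.2. Its log2 fold change in the authors' deposited table was 0.23 (SE 0.27, unadjusted DESeq2 p = 0.396), pulled towards 0 as for all genes with few reads.

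DCN had 0, 1 and 2 reads in the EGFR+vIII libraries and 0, 2 and 1 in the knockout libraries, so that 3 reads stood on either side. The counting interval of that ratio ran from 0.134 to 7.47, which includes the knockout to EGFR+vIII ratio of LUM, 0.305. The interval of BGN lies above 0.305, though it takes no account of the spread between libraries. FMOD had 1 read in all, in an EGFR+vIII library. Whether BGN, DCN or FMOD changed was not detectable from so few counted reads.

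Other genes of the family, a list of 8, were also sparse. TSKU (tsukushi, a secreted inhibitor of BMP signalling) had 0, 12 and 8 reads in the EGFR+vIII libraries and 1, 1 and 2 in the knockout libraries, and was the one tested gene of the list. The ratio of the 4 knockout to the 20 EGFR+vIII reads is 0.2, with an exact 95% counting interval of 0.0497 to 0.597 that takes no account of the spread between libraries. Its log2 fold change in the authors' deposited table was -0.45 (SE 0.32, DESeq2 adjusted p = 0.362), and the groups overlap. ECM2, which lies beside ASPN, had 6 reads, CHADL had 4, CHAD (chondroadherin, of cartilage) had 3 and OPTC (opticin, of the eye) had 1. All 4 reads of CHADL and all 3 of CHAD came from a single library each. PODN, PODNL1 and NYX are listed at 0 in the authors' deposited table.

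**Figure D2:**
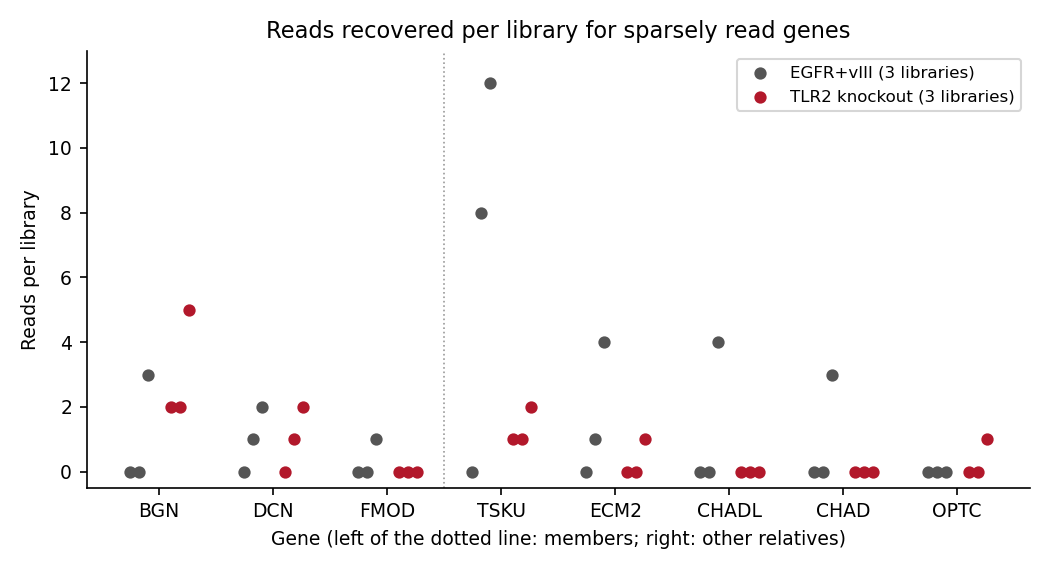
Reads per library (vertical axis) recovered from the base means of 8 sparsely read genes, 3 points for the EGFR+vIII libraries and 3 for the knockout libraries. No gene exceeds 12 reads in a library, and in BGN, DCN and TSKU the points of the groups overlap.

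LUM was 1 of the 1193 tested genes called lower, which are 12.7% of the 9372 tested genes, while 12.4% were called higher. With 1 member tested, the family's count of 1 lower and 0 higher cannot be read against that background. By log2 fold change LUM was the 68th lowest of the tested genes (0.726% were at or below it), and 22.9% of tested genes had a base mean at or above that of LUM. Among the 1422 tested genes with a base mean within 2-fold of LUM in the authors' deposited table, 22.9% were called lower and 12 genes, LUM included, had a log2 fold change at or below -1.71. The median SE of those genes in the authors' deposited table was 0.11, close to the 0.12 of LUM.

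**Figure D3:**
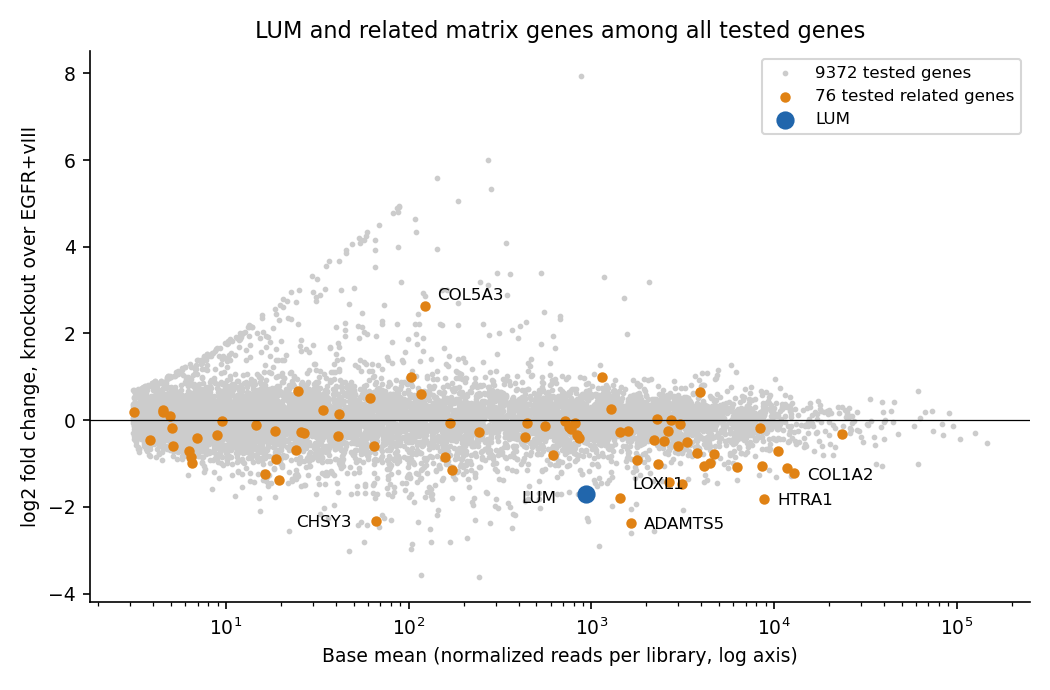
Log2 fold change (knockout over EGFR+vIII) against base mean (log axis) for 9372 tested genes in grey, with 76 tested genes of the related lists in orange and LUM in blue. LUM, at -1.71, lies near ADAMTS5, HTRA1 and LOXL1 and below most related genes.

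Lumican acts within a collagen matrix, so the genes of fibrils, their processing, glycosaminoglycan chains, receptors and proteases were described next, in 9 lists with 143 genes in all. These lists were chosen with earlier results of these data known, so their counts are a description and not independent support. Of the 143 genes, 76 were tested, 35 were called lower and 5 higher (background 12.7% and 12.4%), and 67 were not tested. That background is not matched for read level. Among tested genes with a base mean within 2-fold of LUM, 22.9% were called lower. Some called genes of the lists, such as COL1A2 (base mean 12930) and MMP14 (11854), lie far above that range. A share at their level was not computed. The median log2 fold change was -0.36 over the 76 genes and 0.02 over all tested genes. With LUM counted in, LUM ranked 5th lowest of 77, after ADAMTS5, CHSY3, HTRA1 and LOXL1. Each value below is of 1 accession. TGFBR2 has 2 accessions, COL6A2, LOX and LOXL3 have 3, and COL6A3, LTBP1 and MMP2 have 5. Values of these genes need not be those of the whole gene.

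Fibrillar collagens and fibril partners, the structures that lumican binds, had 6 of 12 tested genes lower and 1 higher (background 12.7% and 12.4%). Both chains of type I collagen were lower, COL1A2 (-1.23, SE 0.07) and COL1A1 (-0.76, SE 0.09), as log2 fold changes from the authors' deposited table. The authors' deposited table also gave COL5A2 -1.09 (SE 0.08), COL6A1 -0.71 (SE 0.07) and COL6A3 -1.15 (SE 0.20), while the third type VI chain listed, COL6A2, was at 0.03 (SE 0.10, DESeq2 adjusted p = 0.887) and did not pass. For COL14A1, a collagen on the fibril surface, the authors' deposited table gave -1.24 (SE 0.38, base mean 16.3). COL5A3, a minor chain of type V collagen, went the other way, rising by 2.64 on that scale (SE 0.24, DESeq2 adjusted p = 2.28e-26 in the authors' deposited table). COL3A1, with 1 accession and a base mean of 4.50 in the authors' deposited table, was at 0.24 (SE 0.35).

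Genes that process and crosslink collagen had 7 of 11 tested genes lower and 0 higher (background 12.7% and 12.4%). The median log2 fold change of the 11 genes was -0.81. The lysyl oxidases, which crosslink collagen and elastin, fell in 4 genes. Their log2 fold changes in the authors' deposited table were -1.79 (SE 0.12) for LOXL1, -1.06 (SE 0.07) for LOXL2, -0.92 (SE 0.12) for LOX and -0.997 (SE 0.37, base mean 6.56) for LOXL3. The authors' deposited table put LOXL4 at -0.37 (SE 0.32, DESeq2 adjusted p = 0.49). Also lower were PCOLCE, an enhancer of procollagen cleavage (-0.81, SE 0.14), and ADAMTS3, a procollagen peptidase (-0.85, SE 0.20), both from the authors' deposited table.

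Enzymes of chondroitin and dermatan sulfate synthesis build the chains of decorin and biglycan. Of this list, 7 of 18 tested genes were lower and 1 was higher (background 12.7% and 12.4%). CHSY3, a chondroitin synthase, had the largest drop of the list (log2 fold change -2.32, SE 0.30, base mean 66.0 in the authors' deposited table), whereas its relative CHSY1, with a base mean of 2743, was at 0.01 (SE 0.09). The sulfate transporter SLC26A2 (-0.50, SE 0.07) and PAPSS1, which makes the sulfate donor (-0.48, SE 0.08), were lower in the authors' deposited table. CHST14, a dermatan sulfotransferase, was at -0.34 (SE 0.10) on the same scale of the authors' deposited table and was called lower. For keratan sulfate, the chain type of lumican, 1 of 6 tested genes was lower and 0 were higher (background 12.7% and 12.4%). So few tested genes cannot be set apart from that background. The gene called lower was the galactosyltransferase B4GALT1 (-0.18, SE 0.07, in the authors' deposited table).

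Receptors reported to bind these proteoglycans or to signal with them had 1 of 5 tested genes lower and 0 higher (background 12.7% and 12.4%). With 5 tested genes this count cannot be set apart from that background. The gene that passed was LRP1, an endocytic receptor of decorin (log2 fold change -0.31, SE 0.09, from the authors' deposited table). DESeq2 values in the authors' deposited table were 0.51 for TLR4 (SE 0.28, adjusted p = 0.198), 0.61 for the integrin subunit ITGB1 (SE 0.27, adjusted p = 0.0926), -0.30 for the hyaluronan receptor CD44 (SE 0.35, adjusted p = 0.632) and -0.13 for the VEGF receptor KDR (SE 0.13, adjusted p = 0.552). EGFR, MET, P2RX4 and P2RX7 have reads but no adjusted p, and TLR2, CD14, NLRP3, ITGA2, ERBB4 and IGF1R are listed at 0 in the authors' deposited table. Each of those 10 genes has several accessions, among them EGFR, with 9 and a base mean of 1.32 in cells labelled EGFR+vIII. TLR4 and ITGB1, with 3 accessions each, and CD44, with 8, were likewise read from 1 accession. Their values need not be those of the whole gene.

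TGF-beta binds decorin, biglycan and fibromodulin. Its ligands, latent binding proteins and receptors had 3 of 4 tested genes lower and 0 higher (background 12.7% and 12.4%). They were the ligand TGFB1 (-0.58, SE 0.13) and the latent binding proteins LTBP1 (-1.37, SE 0.37, base mean 19.5) and LTBP2 (-0.41, SE 0.11), as log2 fold changes from the authors' deposited table. The count rests on few genes, with 6 of 10 not tested, and all 3 lost the call under both stricter settings given below. The receptor TGFBR2 was at -0.35 (SE 0.37, DESeq2 adjusted p = 0.594 in the authors' deposited table).

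Other proteoglycans had 5 of 11 tested genes lower and 2 higher (background 12.7% and 12.4%). SDC2, a cell surface heparan sulfate proteoglycan (-1.47, SE 0.09), CSPG4, the NG2 proteoglycan (-1.42, SE 0.10), and the glypican GPC1 (-1.02, SE 0.09) were lower by log2 fold changes from the authors' deposited table. Syndecans did not share a direction, as SDC4 (0.65, SE 0.08) and SDC3 (0.99, SE 0.25) were higher in the authors' deposited table.

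Proteases that can cut small leucine-rich proteoglycans had 5 of 8 tested genes lower and 1 higher (background 12.7% and 12.4%). ADAMTS5, an aggrecanase (-2.36, SE 0.11), the serine protease HTRA1 (-1.82, SE 0.08), the membrane-bound collagenase MMP14 (-1.10, SE 0.08) and the gelatinase MMP2 (-1.06, SE 0.24) were lower by log2 fold changes from the authors' deposited table. MMP3, a stromelysin that can degrade decorin, was the higher one (1.01, SE 0.10, from the authors' deposited table). Of the called genes named from the lists, ADAMTS3, B4GALT1, CHST14, COL14A1, LOXL3, LRP1, LTBP1, LTBP2, MMP2, SDC3 and TGFB1 lost the call both against a change of more than 1.5-fold and with Wald scores scaled by their own central spread. Against the former, COL1A1, COL6A1, COL6A3, LOX, PAPSS1, PCOLCE, SDC4 and SLC26A2 lost it too, as did CETN2 and IPPK of the genes beside members given below, and LUM kept it under both.

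**Figure D4:**
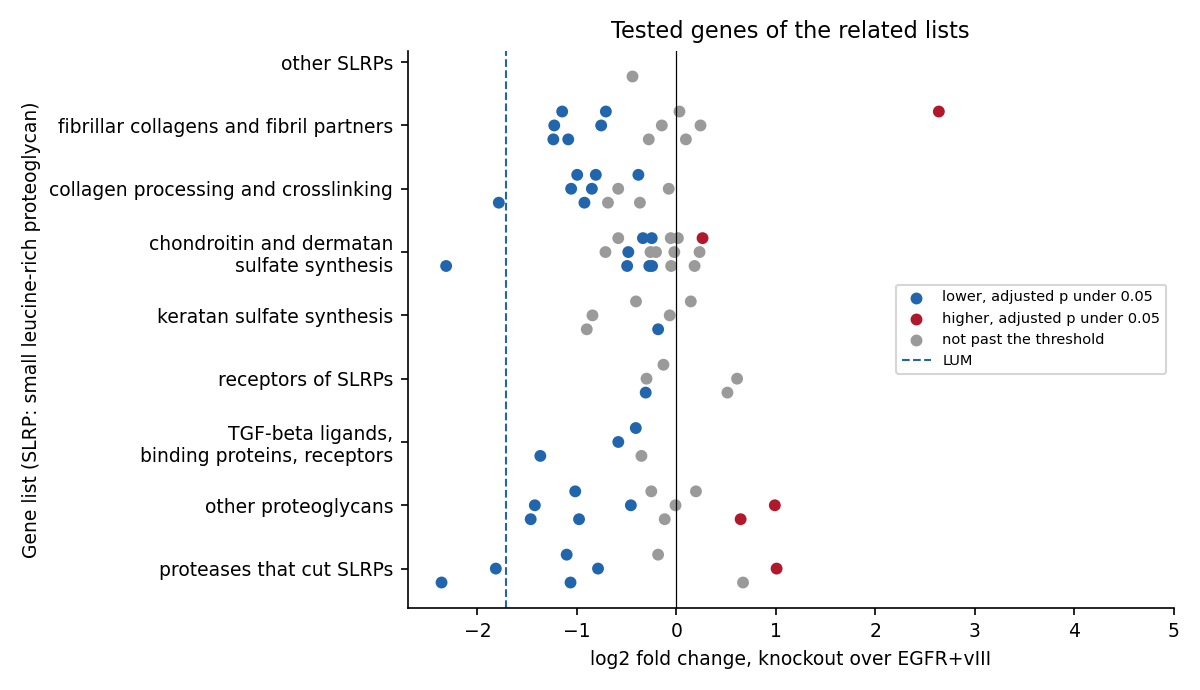
Log2 fold change (knockout over EGFR+vIII) of each tested gene in the 9 related lists, blue where called lower, red where called higher and grey otherwise, with LUM at -1.71 as a dashed line. Only ADAMTS5, CHSY3, HTRA1 and LOXL1 lie left of that line among these genes.

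LUM is also a gene of fibroblasts. The fibroblast and mural marker list had 6 of 10 genes tested, with COL1A1 and COL1A2 called lower and 0 higher (background 12.7% and 12.4%). So few tested genes cannot be set apart from that background, and both called genes were already counted among the fibrillar collagens. The other 4 tested markers, PDGFRA, PDGFRB, COL3A1 and FAP, had base means from 4.50 to 14.1 in the authors' deposited table and did not pass, with log2 fold changes of 0.71, 0.01, 0.24 and -0.29 in that order. RGS5 and POSTN are listed at 0 in the authors' deposited table, where THY1 stands at a base mean of 0.698 and ACTA2 at 0.313. All but COL1A1, COL1A2 and COL3A1 have several accessions. The RNA came from the U87 line, so these values are of genes read in that line. The part of these marker changes in the fall of LUM was not tested.

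Most of the members sit in clusters. EPYC, KERA, LUM and DCN lie side by side within 219 kb of chromosome 12, OGN, OMD and ASPN within 99.2 kb of chromosome 9, and FMOD and PRELP within 151 kb of chromosome 1, while BGN is on chromosome X. In the chromosome 12 cluster LUM alone was tested, so whether its neighbours in the family moved with it cannot be read. The nearest tested genes outside the cluster were LINC02392, ATP2B1-AS1 and ATP2B1 on one side. Their log2 fold changes in the authors' deposited table were 0.14 (SE 0.36), 0.09 (SE 0.28) and 0.15 (SE 0.36). With base means of 22.1, 68.1 and 5.35 there, and 15 accessions for ATP2B1, a change in them could be missed. On the other side BTG1 (-0.13, SE 0.09), EEA1 (0.07, SE 0.10) and UBE2N (0.15, SE 0.09) were nearest, and none of these 6 genes passed the threshold (DESeq2 adjusted p from 0.246 to 0.888 in the authors' deposited table). Of the 20 nearest tested genes, up to 4.07 Mb away, 3 were called lower and 0 higher (background 12.7% and 12.4%). These counts cannot be set apart from that background. The median log2 fold change of the 20 genes was 0.09. Relative to that median, LUM had a log2 fold change of -1.80.

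**Figure D5:**
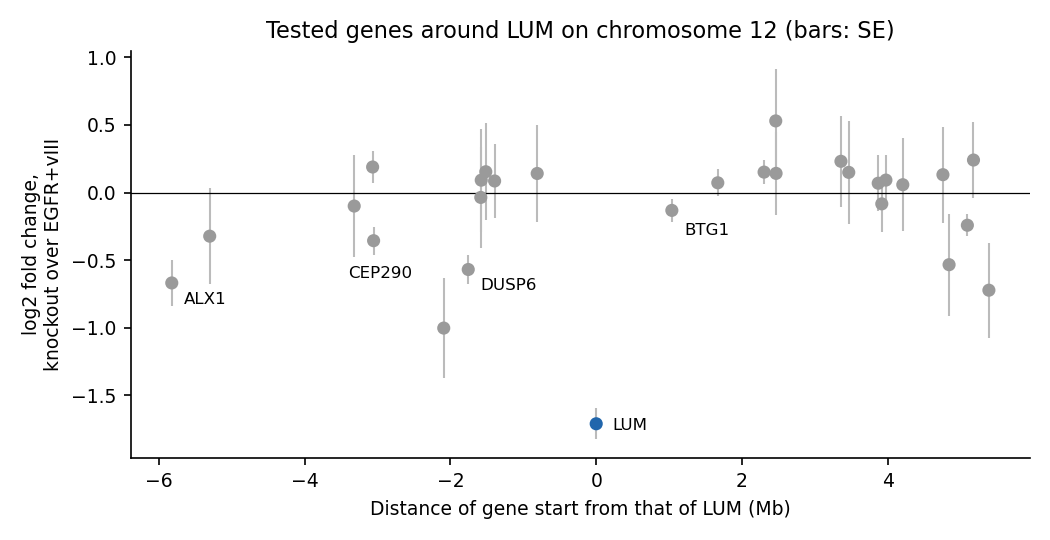
Log2 fold change (knockout over EGFR+vIII, bars the SE) of tested genes against the distance of their start from that of LUM on chromosome 12, in Mb. LUM, at -1.71, is below every other gene shown, and the nearest gene on the right, BTG1, is at -0.13.

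At the other member loci, where no member was tested, called flanking genes went both ways beside FMOD and PRELP and near BGN. Beside FMOD and PRELP, the antiproliferative gene BTG2 (-1.75, SE 0.21) was lower and CHI3L1, which encodes a secreted glycoprotein (3.01, SE 0.24), was higher in the authors' deposited table, while MGAT4FP, LINC00260, ZBED6 and SOX13 did not pass the threshold. Near BGN, the cancer-testis antigen gene MAGEA1, which has close paralogs, was higher (3.40, SE 0.15) and the centrin gene CETN2 was lower (-0.48, SE 0.08) in the authors' deposited table, while ZNF275, LOC105373383, DUSP9 and BCAP31 did not pass. Around OGN, OMD and ASPN, the inositol phosphate kinase gene IPPK was higher (0.55, SE 0.10, from the authors' deposited table), and NOL8, IARS1, LOC100128076, LOC100128361 and BICD2 did not pass.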

How the data were processed

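The file is the authors' comparison of the groups, a line for each of 67933 RefSeq accessions (73.3% at 0), without values of single libraries. Per the submitters' processing notes STAR and DESeq2 were used, with build hg38. Settings, counter, annotation release and strandedness were not found in the sources used here. Deposited by the authors were, per the file headers, a base mean (a signal: counts divided by size factors, averaged), a log2 fold change with its SE, a Wald score, a p-value and an adjusted p-value. The largest deposited SE, 0.38, shows fold changes drawn towards 0, which understates changes of genes with few reads. A Benjamini-Hochberg adjustment over the 10303 accessions tested gave the deposited adjusted p within 4.48e-07, and a value under 0.05 was called.

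Accessions were matched to genes by a RefSeq table of GRCh38.p14 (98.8% matched), and each gene was represented by its accession of highest base mean. Transcript lengths and coding sequences came from GENCODE 29. Whole reads per library were solved for base means under 4, with a tolerance of 2e-07. Fits over libraries could not be run. Members, lists and alternatives were chosen with earlier results of these data known. All 10 members were named whatever their values. From each related list the rule took up to 4 called genes with the largest change, from the receptor list every gene, and at each locus the 3 nearest tested genes on either side. COL1A1, COL3A1, COL5A2, COL6A1, COL6A2, LOXL4, PCOLCE, ADAMTS3, CHSY1, TGFBR2, SDC4 and MMP3 were added after their values were seen. Scripts ran in Python 3.11.15 with SciPy 1.17.1 and were tested on simulated data.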

Additional observations from a re-analysis of the deposited data

How the results depend on the processing

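LUM kept its direction and its call in all 9 alternatives: a threshold of 0.01, adjustment over 1 accession per gene, a base mean of at least 100, a change of more than 1.5-fold, scaled Wald scores, centring on the median, fold changes relative to the 20 nearest tested genes, the accession with the smallest p-value and, chosen after seeing the data, genes with 1 accession. Its log2 fold change ran from -1.80 to -1.71 and its adjusted p from 8.89e-53 to 4.63e-15 (the DESeq2 values readjusted). Only centring and the median of the nearest genes could move that fold change. As LUM has 1 accession and a base mean above 100, choices of accession or base mean could alter its adjusted p alone. With so small an adjusted p, its call at 0.01 was also fixed in advance. The member count stayed at 1 lower and 0 higher. The related genes called lower, 35 as reported, numbered 12 against a change of more than 1.5-fold and 21 with scaled Wald scores, and those called higher, 5 as reported, numbered 2 and 3. The stricter null makes the first pair smaller by construction, and the scores were divided by 1.75 for the second. In the other 7 alternatives the counts were 30 to 35 lower and 4 to 6 higher. Log2 fold changes of BGN, DCN and FMOD moved by less than their SE. No paired analysis was possible because the table has no value per library, and leaving out a replicate was not run for the same reason. Few counted reads limit every member but LUM, and for members with several accessions the part of shared reads in this was not tested.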
